A study of Mus musculus with 4 samples.

Results

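The 9 genes described here carry the bone morphogenetic protein (BMP) signal in mouse embryonic stem cells. They are the ligand genes Bmp4 and Bmp7, the type I receptor gene Bmpr1a, the signal transducer genes Smad1 and Smad5, and the target genes Id1, Id2, Id3 and Id4. They were chosen by name, and each had 1 row in both expression tables, which hold 22492 gene symbols. The cells were E14Tg2a, a mouse embryonic stem cell line, as a knockout of the genes Tet1, Tet2 and Tet3 (TetTKO) and as the unmodified line (WT). Per genotype there was 1 library of whole-genome bisulfite sequencing (WGBS), which gives the share of methylated reads at single CpGs, and 1 of RNA-seq, which gives RNA levels in FPKM (fragments scaled to transcript length and to the mapped fragments of the library). Nothing could therefore be tested against replicate error, and differences are described by their size. The TetTKO cells derived from E14 cells in 2i medium, a serum-free medium with inhibitors of MEK and GSK3. They were transfected with px330 plasmids for guide RNAs against the 3 Tet genes and with a puromycin resistance plasmid, selected with puromycin and picked as clones; how many clones stand behind the libraries is not stated. No mock transfection or clone picking is described for the WT E14 cells. Both lines were then kept on gelatin in medium with 15% fetal bovine serum and 1000 units/ml of the cytokine LIF, for 17 days or longer.

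BMP ligands bind a pair of receptor types at the cell surface, the type I receptor phosphorylates Smad1, Smad5 or Smad9, and these enter the nucleus with Smad4 and bind DNA. The Id genes are among their best known direct targets; Id proteins have no DNA-binding region of their own and hold E proteins away from DNA. In mouse embryonic stem cells grown with LIF, BMP or serum keeps Id genes active, and this is known to restrain neural differentiation. Tet enzymes oxidise 5-methylcytosine, a step on the way to its removal, and bisulfite data do not separate 5-methylcytosine from its first oxidation product.

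The libraries carried embryonic stem cell RNA, with all 8 markers of that cell type above 1 FPKM. Pou5f1 had 1092 FPKM in TetTKO and 1178 FPKM in WT. Of the targeted genes, Tet1 had 4.36 FPKM in TetTKO and 15.1 FPKM in WT, Tet2 had 4.13 FPKM in TetTKO and 14.9 FPKM in WT, and Tet3 had 0.27 FPKM in TetTKO and 0.32 FPKM in WT. Over the 14323377 CpGs listed for both libraries, the TetTKO WGBS library held 150132176 read calls with a median coverage of 10, and the WT library 132794183 with a median coverage of 8. Medians by chromosome were taken over genes of at least 5 FPKM in both libraries. Such genes on chromosome 6 had a median log2 difference of -0.52. None of the 9 genes lies there, and the medians of the chromosomes that hold them lay between -0.07 (chromosome 8) and 0.01 (chromosome 14).

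Bmp4 was the gene of the 9 whose RNA changed by size, and it fell in TetTKO. A gene was counted as higher or lower when log2((TetTKO + 1)/(WT + 1)), with 1 FPKM added to each value, passed 2-fold. Of the 8 genes that reached 1 FPKM in TetTKO or WT, 0 were higher and 1 was lower. Over all 10984 genes with that level, 1.77% were higher and 0.856% were lower. The median log2 difference of the 8 was 0.23, with 6 genes above 0 and 2 below, against a median of -0.01 over all genes and an interquartile range of -0.21 to 0.20. Id4, 1 of the 6, reached 1 FPKM only in TetTKO and could lie only above 0. At 1.5-fold, Bmp4 was lower and Id3 higher, where 6.54% of all genes were higher and 5.25% lower. In the plot of the RNA levels the ordering of the genes is much the same in both libraries. By level in FPKM, which is scaled by length, the order in TetTKO was Id3, Id1, Bmpr1a, Id2, Bmp4, Smad1, Smad5, Id4 and Bmp7. In WT, Id1 stood above Id3 and Bmp4 followed them, above Bmpr1a and Id2; with 1 library each, the error of any step in this order is unknown.

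**Figure D1:**
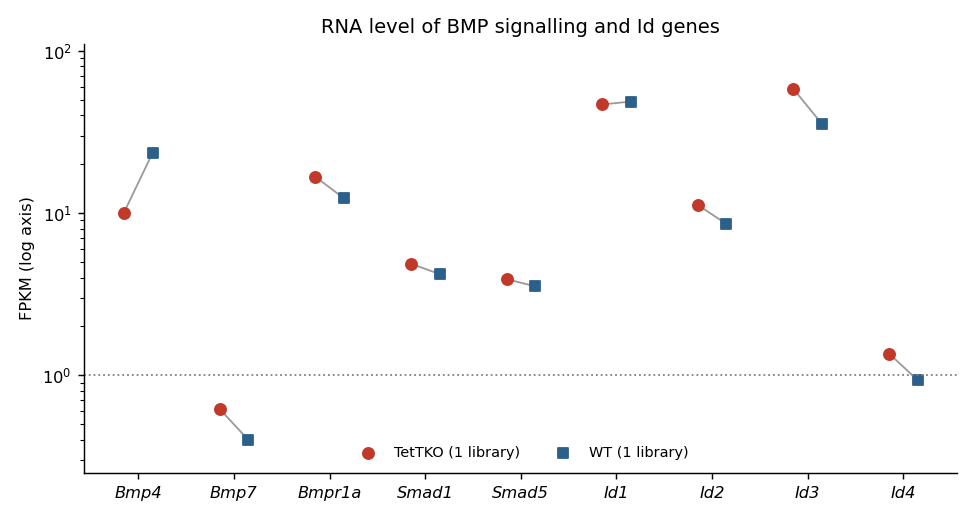
RNA level of each of the 9 genes (FPKM, log axis) in the TetTKO library (red circles, left of each pair) and the WT library (blue squares), joined by a line, with the dotted line at 1 FPKM. Bmp4 lies at 10.04 FPKM in TetTKO and 23.5 FPKM in WT, and Id3 at 58.1 FPKM in TetTKO and 35.3 FPKM in WT, while Smad1, Smad5 and Id1 lie almost level.

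Bmp4, the main BMP ligand gene of the early embryo (mm9 chromosome 14, 47003196 to 47010274), had 10.04 FPKM in TetTKO and 23.5 FPKM in WT. The level was 2.34-fold lower in TetTKO as a plain ratio, a difference of -1.15 on the log2 scale with 1 FPKM added. Of the 10984 genes, 57 (0.519%) were lower by at least as much. With 5 FPKM added in place of 1, Bmp4 no longer passed 2-fold. In these bulk libraries fewer cells with Bmp4 RNA and less Bmp4 RNA per cell cannot be told apart.

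The promoter of Bmp4 is shown because its RNA fell while the letters below stayed almost free of methylation in both libraries. The stretch is the 250 bases before the transcript start given by RefSeq, on the minus strand of GRCm38.p6 at chr14:46390670-46390919, 5′ to 3′, with CpGs in capitals:
Bmp4: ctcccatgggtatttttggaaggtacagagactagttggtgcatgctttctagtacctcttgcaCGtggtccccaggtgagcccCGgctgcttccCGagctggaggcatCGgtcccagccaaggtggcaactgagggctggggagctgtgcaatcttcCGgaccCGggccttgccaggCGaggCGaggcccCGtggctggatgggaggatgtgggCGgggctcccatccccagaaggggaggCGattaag
It holds 11 CpGs, and 8 of them were covered by at least 5 reads in each library. Methylated calls were 0 of 61 in TetTKO, with an upper 95% bound of 5.87%, and 1 of 54 in WT. The Bmp4 promoter thus had no more methylated calls in TetTKO than in WT at this depth, which cannot show a difference of a few percentage points.

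Bmp7, a related ligand gene (mm9 chromosome 2, 172695189 to 172765794), stayed below 1 FPKM in both libraries, with 0.62 FPKM in TetTKO and 0.40 FPKM in WT, and was not counted. Its values are too low to order the libraries. Of the 15 BMP ligand genes listed, 3 reached 1 FPKM: Bmp4, Gdf3 and Bmp15. Gdf3, a ligand of the pluripotent epiblast, had 42.0 FPKM in TetTKO and 57.3 FPKM in WT, a log2 difference of -0.44. It lies on chromosome 6, where the median gene of at least 5 FPKM in both libraries differed by -0.52. Bmp15, best known from oocytes, had 1.43 FPKM in TetTKO and 1.30 FPKM in WT. Of these 3, Bmp4 was the one that passed 2-fold, and none was 2-fold higher. The ligand genes below 1 FPKM were not counted. By the plain ratio some of them were more than 2-fold higher in TetTKO and none was lower, at values near the floor.

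Bmpr1a, which encodes the type I receptor for BMP4 (mm9 chromosome 14, 35224254 to 35315732), had 16.8 FPKM in TetTKO and 12.3 FPKM in WT, a ratio of 1.36. Of all genes, 11.3% were higher by at least as much. All 7 receptor and co-receptor genes with at least 1 FPKM, of 12 listed, lay above 0, where 48.9% of all genes did. Of the 7, 0 passed 2-fold in either direction, and the median log2 difference was 0.21. The type II receptor genes Acvr2b and Acvr2a, which activin ligands also use, had 4.77 and 3.08 FPKM in TetTKO, against 4.59 and 2.47 FPKM in WT. The co-receptor gene Eng had 1.97 FPKM in TetTKO and 1.31 FPKM in WT. Rgmb, a co-receptor gene with 1.29 FPKM in TetTKO and 0.98 FPKM in WT, was counted only through TetTKO, where it was higher. Of the genes that did not reach 1 FPKM, Acvrl1, a type I receptor gene, lay the other way, with 0.11 FPKM in TetTKO and 0.36 FPKM in WT.

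Smad1 and Smad5, the receptor-activated transducers, differed little. Smad1 (mm9 chromosome 8, 81862298 to 81923367) had 4.87 FPKM in TetTKO and 4.20 FPKM in WT. Smad5 (mm9 chromosome 13, 56804371 to 56843739) had 3.91 FPKM in TetTKO and 3.53 FPKM in WT. Their log2 differences were 0.17 and 0.12, inside the interquartile range of all genes. Smad4, the partner they share with other pathways, had 17.6 FPKM in TetTKO and 18.8 FPKM in WT, and Smad9, another BMP transducer gene, had 0.10 FPKM in TetTKO and 0.06 FPKM in WT. RNA levels do not show whether the Smad proteins were phosphorylated.

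The Id genes were together somewhat higher in TetTKO, most of it through Id3. Id1 to Id4 summed to 117 FPKM in TetTKO and 93.4 FPKM in WT, a ratio of 1.26. Id1 and Id3 made up 89.3% of that sum in TetTKO and 89.9% in WT. Id1 (mm9 chromosome 2, 152562010 to 152563146) had 46.6 FPKM in TetTKO and 48.6 FPKM in WT, a log2 difference of -0.06. Id3 (mm9 chromosome 4, 135699737 to 135701307) had 58.1 FPKM in TetTKO and 35.3 FPKM in WT, 1.65 times as much, and 4.54% of all genes were higher by at least this size. The ratio of Id3 to Id1 was therefore 1.25 in TetTKO and 0.726 in WT. Id2 (mm9 chromosome 12, 25778664 to 25780957) had 11.2 FPKM in TetTKO and 8.54 FPKM in WT, a ratio of 1.31. Id4 (mm9 chromosome 13, 48356796 to 48359405), known mainly from the nervous system, was near the floor, with 1.36 FPKM in TetTKO and 0.93 FPKM in WT. None of the 4 Id genes passed 2-fold, and only Id3 passed 1.5-fold.

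The promoters of Id3 and Id2 are shown because in both the 250 bases before the start were nearly free of methylation. Some stretches nearby were more methylated in TetTKO, and others less. The sequences are from RefSeq on GRCm38.p6, Id3 on the plus strand at chr4:136143572-136143821 and Id2 on the minus strand at chr12:25096093-25096342, with CpGs in capitals:
Id3: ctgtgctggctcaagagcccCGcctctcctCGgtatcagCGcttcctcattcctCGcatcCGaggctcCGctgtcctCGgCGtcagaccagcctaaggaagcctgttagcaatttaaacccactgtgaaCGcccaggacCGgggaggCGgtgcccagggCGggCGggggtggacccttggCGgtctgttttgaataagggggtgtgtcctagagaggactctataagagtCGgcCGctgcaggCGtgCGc
Id2: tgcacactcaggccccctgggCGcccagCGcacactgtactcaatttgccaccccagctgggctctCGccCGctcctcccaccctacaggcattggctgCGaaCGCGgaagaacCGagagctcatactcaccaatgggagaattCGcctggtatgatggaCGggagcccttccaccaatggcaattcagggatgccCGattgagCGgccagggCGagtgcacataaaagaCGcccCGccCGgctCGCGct
Each holds 18 CpGs. At Id3, 17 of them were covered, with methylated calls of 0 of 144 in TetTKO and 0 of 135 in WT, which leaves upper 95% bounds of 2.53% in TetTKO and 2.70% in WT. At Id2 all 18 were covered, with 2 of 205 in TetTKO and 0 of 187 in WT. Of the 9 genes, 7 had such a stretch in RefSeq (all but Bmp7 and Id1). Over the full stretches of 300 bases, 50 of them after the start, the 7 genes together had 4 methylated calls of 1054 in TetTKO and 4 of 1030 in WT. This is 0.380% in TetTKO and 0.388% in WT, over the 126 of the 201 CpGs in these stretches that were listed. Fewest were listed at Id4, 9 of 39, and at Bmpr1a, 10 of 48.

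Both short motifs that Smads of this pathway are known to bind were searched on both strands of these 300 bases, as a description of the sequence and no more. GGCGCC, which reads the same on both strands, was found in Id2, Id4, Smad5 and Bmpr1a, of the 7 genes, and in 11.9% of all 32851 RefSeq promoters of that length. GTCT, read as AGAC on the other strand, was found in 5 of the 7, with 3 matches in Id3 and 2 in Bmp4, and in 88.0% of all promoters. Id2, Smad5 and Bmpr1a held both motifs, at positions that did not overlap. The 7 stretches held 12 to 48 CpGs, against a median of 7 over all promoters.

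Inhibitors and further targets of the pathway gave few differences past 2-fold. Of the 9 intracellular inhibitor genes, all of at least 1 FPKM, 0 passed 2-fold and the median log2 difference was 0.15. Skil, a Smad-binding repressor, had 42.8 FPKM in TetTKO and 35.3 FPKM in WT, and Smad7, an inhibitory Smad, had 11.01 FPKM in TetTKO and 11.6 FPKM in WT. Fkbp1a, whose protein binds type I receptors, had 24.5 FPKM in TetTKO and 20.8 FPKM in WT, and the ubiquitin ligase gene Smurf2 had 13.8 FPKM in TetTKO and 10.4 FPKM in WT. None of these 4 passed 1.5-fold.

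Of the 18 extracellular antagonist and modulator genes, 5 reached 1 FPKM, 2 were 2-fold higher and 0 lower. Over all genes, 1.77% were higher and 0.856% lower. Bmp1, which encodes a metalloprotease and not a BMP ligand, had 2.77 FPKM in TetTKO and 0.72 FPKM in WT. Fst encodes follistatin, which traps activins and, more weakly, BMPs, and had 2.88 FPKM in TetTKO and 0.86 FPKM in WT. Both were counted only through their TetTKO level, so they could differ only upward. The more abundant Fstl1 and Twsg1 had 16.8 and 6.13 FPKM in TetTKO, against 14.2 and 6.59 FPKM in WT. The classical BMP antagonist genes were low: Nog had 0.25 FPKM in TetTKO and 0.24 FPKM in WT, and Chrd had 0.86 FPKM in TetTKO and 1.06 FPKM in WT.

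Of 17 listed BMP target genes, the Id genes included, 9 reached 1 FPKM, with 0 past 2-fold, 6 above 0 and a median log2 difference of 0.29. That median is the value of Id4, which was counted only through TetTKO; Hey1, with 0.71 FPKM in TetTKO and 1.30 FPKM in WT, was counted only through WT. Dusp9, a phosphatase of ERK that BMP is known to induce in embryonic stem cells, had 65.7 FPKM in TetTKO and 51.5 FPKM in WT. Of the genes for E proteins, the partners of Id proteins, Tcf3 (E2A, chromosome 10) had 22.3 FPKM in TetTKO and 26.5 FPKM in WT. Tcf12 had 5.73 FPKM in TetTKO and 2.86 FPKM in WT, and Tcf4 2.02 FPKM in TetTKO and 3.52 FPKM in WT. With 1 FPKM added, Tcf12 passed 1.5-fold upward, Tcf4 at a log2 difference of -0.58 fell just short of it downward, and none of the 3 passed 2-fold. By the plain ratio Tcf12 was 2.00-fold higher and Tcf4 1.74-fold lower. Over all lists, 36 of 75 genes reached 1 FPKM. Of the 36, 2 (5.56%) were higher and 1 (2.78%) was lower, against 1.77% and 0.856% of all genes. The median log2 difference was 0.16, with 24 genes above 0 and 12 below, where 48.9% of all genes lay above 0. The plot of the pathway lists shows Bmp4 alone beyond 2-fold on the left.

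Markers of other cell types also differed between the libraries. Beside the counts that follow, 1.77% of all genes of at least 1 FPKM were 2-fold higher and 0.856% lower. The 13 primitive endoderm markers summed to 105 FPKM in TetTKO and 46.8 FPKM in WT, with 4 of the 11 that reached 1 FPKM at least 2-fold higher. Of those 4, Col4a1 and Col4a2 had 25.4 and 8.34 FPKM in TetTKO, against 6.44 and 2.50 FPKM in WT, and Cubn and Pdgfra were counted only through TetTKO. None of the 13 was at 0, and the defining factors Gata4 and Gata6 had 1.19 and 1.44 FPKM in TetTKO, against 0.45 and 0.37 FPKM in WT. The 9 trophoblast markers summed to 73.1 FPKM in TetTKO and 43.1 FPKM in WT, and 0 of the 5 that reached 1 FPKM passed 2-fold. The keratin genes Krt8 and Krt18 made up most of the sum, with 33.1 and 25.1 FPKM in TetTKO, against 18.5 and 14.9 FPKM in WT. Cdx2 had 0.92 FPKM in TetTKO and 0.27 FPKM in WT, and Gata3 had 0.06 FPKM in TetTKO and 0.07 FPKM in WT. The 10 fibroblast and feeder markers summed to 38.7 FPKM in TetTKO and 12.1 FPKM in WT. Of the 3 that reached 1 FPKM, Tagln and Acta2 were at least 2-fold higher and made up most of the sum. Tagln had 26.4 FPKM in TetTKO and 8.59 FPKM in WT, and Acta2 had 9.84 FPKM in TetTKO and 1.86 FPKM in WT. Thy1 lay the other way, with 0.96 FPKM in TetTKO and 1.29 FPKM in WT. The rest stayed below 1 FPKM, with Lum at 0 in both, and Col1a1 at 0.19 FPKM in TetTKO and 0.07 FPKM in WT. The 7 mesoderm and primitive streak markers summed to 4.03 FPKM in TetTKO and 1.91 FPKM in WT, with 0 of 2 past 2-fold. The 5 neuroectoderm markers summed to 42.1 FPKM in TetTKO and 66.6 FPKM in WT, with 1 of 3 at least 2-fold higher. Tubb3 made up most of that sum, with 32.4 FPKM in TetTKO and 61.1 FPKM in WT. Nes, the 1 that was higher, had 8.08 FPKM in TetTKO and 2.59 FPKM in WT. Pax6 had 1.32 FPKM in TetTKO and 2.63 FPKM in WT, and Sox1 and Zic1 stayed below 1 FPKM. The 8 embryonic stem cell markers summed to 5929 FPKM in TetTKO and 6036 FPKM in WT, a sum made up mostly of Dppa5a and Pou5f1. Of these markers, Nanog (chromosome 6) had 71.0 FPKM in TetTKO and 116 FPKM in WT, and Esrrb 26.4 FPKM in TetTKO and 49.3 FPKM in WT. The part of these other cell types' markers in the levels of Bmp4 and the Id genes was not tested.

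Methylation around the 9 genes was read in fixed windows of 1 kb with at least 5 listed CpGs, over each gene and 20 kb on each side. These regions held 495 windows with 6134 CpGs. The median window was 1.65 percentage points lower in TetTKO (a difference of -1.65), against -5.90 over all 1223855 windows, and 58.2% of the windows were lower in TetTKO, against 72.4% of all. Windows that gained at least 30 points numbered 4, where 0.672% of all windows did so, and 1 window lost as much, where 0.604% did so. Of these 5, the Bmp7 window was the one with at least 10 CpGs, so that with this minimum 1 gain and 0 losses were counted, 0.385% of 260 windows gaining against 1.07% of all. The exact 95% intervals of the libraries lay apart in 36 windows that were higher in TetTKO and 14 that were lower, against 3.21% and 6.09% of all windows. The intervals cover counting error only and are too narrow even for that, since 1 read that spans several CpGs is counted at each.

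The Bmp4 region was more methylated in TetTKO in most of its windows, unlike the median gene region. Of its 29 windows, 23 were higher in TetTKO and 6 lower, with a median difference of 6.36 points. Over 18728 gene regions with at least 20 windows, many of which share windows with a neighbour, the median of this value was -4.45 and 15.4% of regions lay above 0. Regions at least as high as that of Bmp4 numbered 135 (0.721%). The intervals lay apart in 8 of the Bmp4 windows, all higher in TetTKO.

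The windows with intervals apart at Bmp4 lay within the gene and beyond its 3′ end. None of the fixed 1 kb windows in the 20 kb before its start was among them, though a stretch placed by distance from the start was (below). The transcript runs on the minus strand, so its end is the lower coordinate. From the window at 46999000 to that at 47003000, TetTKO had 44.4, 19.0, 35.4, 75.7 and 88.9% methylated reads. WT had 14.5, 2.14, 9.80, 44.3 and 68.4% in the same 5 windows. All 5 were higher in TetTKO with intervals apart. The window at 47002000 to 47002999, which ends 197 bp from the gene, passed 30 points, with 75.7% of 70 calls in TetTKO (95% interval 64.0 to 85.2%) and 44.3% of 61 in WT (31.5 to 57.6%). The gene model Gm15217 (46999199 to 47003281), which overlaps this end, had 0.21 FPKM in TetTKO and 0.18 FPKM in WT.

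Towards the start of Bmp4 the difference shrank with the level. The 81 CpGs from 2 to 5 kb after the start had 3.98% in TetTKO and 0.186% in WT. From 1000 bp before to 500 bp after the start, the 27 CpGs around the sequence above had 2.24% in TetTKO and 2.69% in WT. Beyond that, from 2 to 1 kb before the start, 10 CpGs had 25.2% in TetTKO (17.3 to 34.6%) and 6.58% in WT (2.17 to 14.7%). These intervals lay apart, unlike those of the fixed windows on this side. Pooled over reads, the flank on the start side as a whole, 158 CpGs over 20 kb, had 39.5% in TetTKO and 41.7% in WT. The mean of the CpG fractions over this flank went the other way, with 42.1% in TetTKO and 38.2% in WT. The direction for the whole flank thus depended on the weighting, and most windows of the flank were higher in TetTKO. Its windows at 47011000 and 47013000 were higher in TetTKO by 12.5 and 18.3 points, and those at 47022000 and 47025000 differed by -10.8 and -12.9 points, all with overlapping intervals. The low stretch around the start thus stayed low in both libraries, and the CpGs next to it on both sides were more methylated in TetTKO. The longest row of windows higher in TetTKO held 13, from 46995000 to 47009999, by 0.52 to 31.5 points. Windows with too few CpGs were skipped in such rows, and the rows of other gene regions were not measured. Over the whole region of 458 CpGs the share was 34.8% in TetTKO and 31.1% in WT; over the 48 CpGs covered 10 times or more in TetTKO and in WT the difference turned to -2.53 points.

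**Figure D2:**
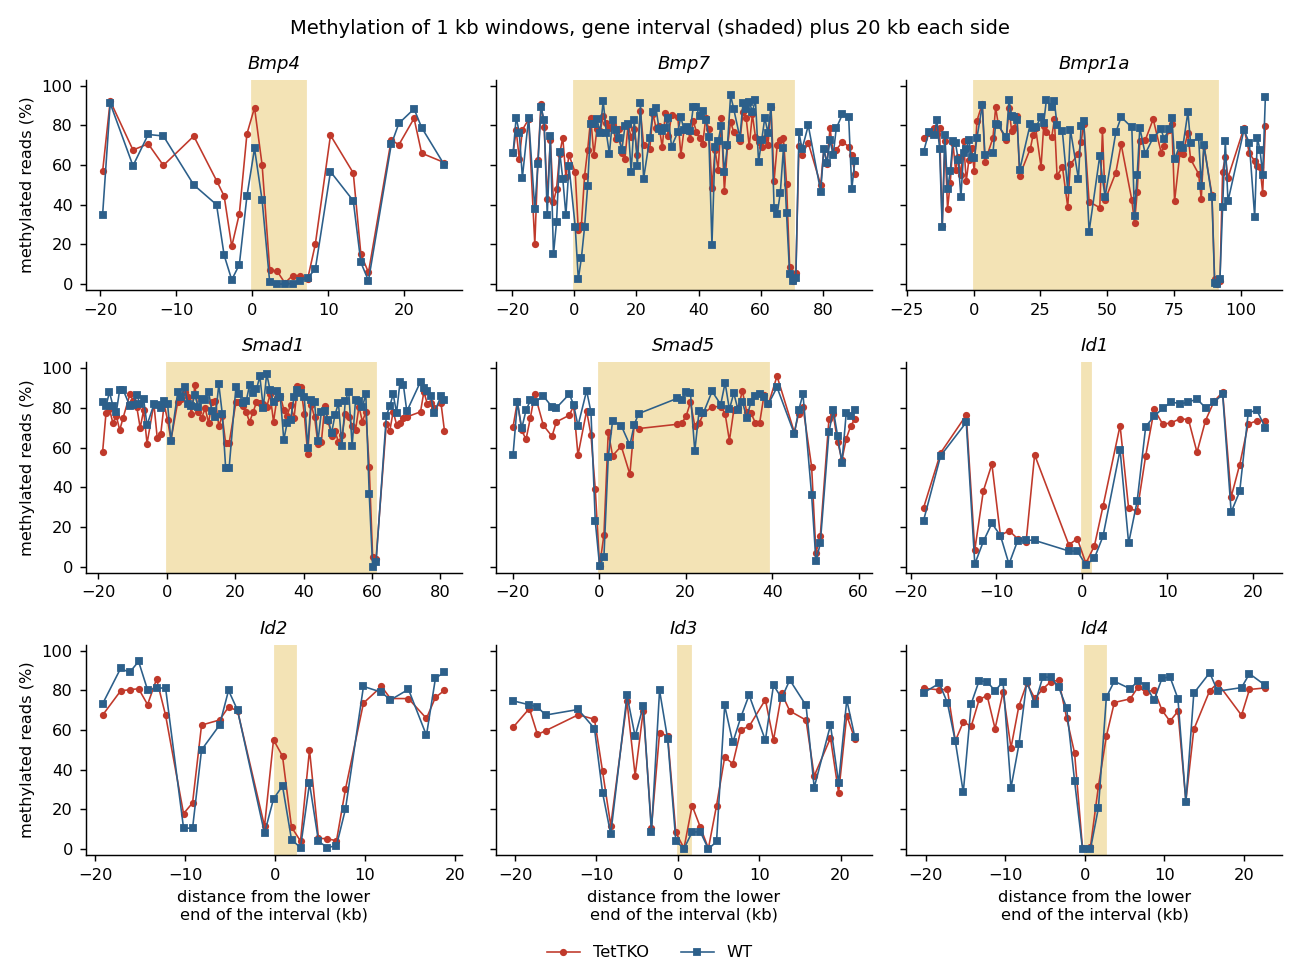
Methylated reads (%) of each 1 kb window with at least 5 CpGs (y axis) against the distance of its centre from the lower end of the gene interval (x axis, kb), in TetTKO (red circles) and WT (blue squares), with the interval shaded. At Bmp4 the TetTKO line lies above the WT line next to the stretch near 0%, and below it in some of the outer windows on both sides, while at Smad1 TetTKO lies mostly below WT.

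The Id1 and Id2 regions were also higher in TetTKO in most windows, and those of Id3 and Id4 were not. Id1 had 22 windows higher and 12 lower with a median difference of 2.30 points, and Id2 had 18 higher and 12 lower with a median of 2.50. Regions at least as high made up 4.86% of all gene regions for Id1 and 4.38% for Id2. Id3 had 14 higher and 20 lower (median -2.55), and Id4 15 higher and 23 lower (median -3.20). Id1 and Id2 had RNA ratios of 0.959 and 1.31, and those of Id3 and Id4 were 1.65 and 1.46. The Id4 ratio rests on values near the floor, 1.36 FPKM in TetTKO and 0.93 FPKM in WT. Close to the gene, Id3 and Id4 also had windows that were higher in TetTKO. Their longest rows of such windows held 7 at Id3, with 11.5% in TetTKO and 7.44% in WT, and 4 at Id4, with 8.46% in TetTKO and 6.35% in WT.

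At Id1 most of the gain lay in the 20 kb on the lower side of the gene, where 189 CpGs had 27.2% in TetTKO and 16.8% in WT. The window 152556000 to 152556999, 5011 bp from the gene, had 56.3% of 71 calls in TetTKO (44.0 to 68.1%) and 13.2% of 53 in WT (5.5 to 25.3%), the largest gain of all 495 windows at 43.1 points. It was among 5 windows on that side that were higher with intervals apart, of 6 in the region. Others of the 5 were those at 152551000, with 51.6% in TetTKO and 21.8% in WT, and at 152550000, with 38.1% in TetTKO and 12.7% in WT. The window over the gene itself, at 152562000 with 53 CpGs, had 1.63% in TetTKO and 0.797% in WT. The ends of Id1 were taken from 1000 bp outside to 500 bp inside the gene. The lower end had 6.84% in TetTKO (5.12 to 8.92%) and 3.55% in WT (2.33 to 5.16%). The upper end had 11.7% in TetTKO (8.46 to 15.5%) and 4.38% in WT (2.21 to 7.71%). Id1 RNA was nearly level between the libraries while these outer windows and the upper end differed.

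At Id2, whose start is its upper end, the 72 CpGs from 1000 bp before to 500 bp after the start had 5.76% in TetTKO (4.25 to 7.61%) and 1.63% in WT (0.846 to 2.83%). The window at the 3′ end, 25778000 to 25778999, had 55.1% in TetTKO and 25.3% in WT, just short of 30 points. Beyond the start, the window at 25782000 had 50.0% in TetTKO and 33.2% in WT. The sequence of Id2 printed above lies between these windows and had almost no methylated calls in either library.

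At Id3 the stretch of 1000 bp before to 500 bp after the start had 9.63% in TetTKO and 6.54% in WT. The window at 135701000, across the 3′ end, had 21.9% in TetTKO and 8.56% in WT. Some other Id3 stretches were lower in TetTKO. From 2 to 1 kb before the start, 13 CpGs had 61.5% in TetTKO and 72.2% in WT, with overlapping intervals. From 5 to 10 kb after it, 36 CpGs had 50.2% in TetTKO (44.4 to 55.9%) and 62.9% in WT (56.9 to 68.5%). At Id4 the same stretch around the start had 7.68% in TetTKO and 5.98% in WT. The window 48341000 to 48341999, 14797 bp from Id4, passed 30 points, with 64.1% of 64 calls in TetTKO (51.1 to 75.7%) and 28.6% of 70 in WT (18.4 to 40.6%). At the 3′ end of Id4, from 500 bp inside to 1000 bp outside the gene, 16 CpGs had 59.1% in TetTKO (51.4 to 66.4%) and 79.9% in WT (72.7 to 85.9%), and the 20 kb beyond had 70.7% in TetTKO and 78.5% in WT. The Id4 region had 3 windows higher and 3 lower in TetTKO with intervals apart. From 1000 bp before to 500 bp after the start, the intervals of TetTKO and WT overlapped at both Id3 and Id4.

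The Bmp7 region had the most windows, 99, with 45 higher and 53 lower in TetTKO and a median of -0.73 points. The window 172760000 to 172760999, inside the gene, had 70.0% of 227 calls in TetTKO (63.6 to 75.9%) and 35.2% of 227 in WT (29.0 to 41.8%), the gain with the most calls behind it. The longest row of windows higher in TetTKO held 9, across the lower end of the gene from 172691000 to 172700999. It had 61.8% in TetTKO and 43.4% in WT over 96 CpGs. At the upper end, 61 CpGs had 1.68% in TetTKO and 1.40% in WT. Bmp7 RNA was near the floor in both libraries.

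By their median window, the receptor and Smad regions followed the direction of the genome as a whole. Bmpr1a had 26 windows higher and 57 lower (median -3.52), Smad1 24 higher and 67 lower (median -3.83), and Smad5 18 higher and 38 lower (median -4.28). Regions with a median at least as high made up 40.5, 43.3 and 48.0% of all gene regions. The 1 window that lost 30 points lay inside Bmpr1a, at 35283000 to 35283999, with 42.4% of 59 calls in TetTKO (29.6 to 55.9%) and 78.9% of 57 in WT (66.1 to 88.6%). Around the start of Bmpr1a 120 CpGs had 0.431% in TetTKO and 0% in WT, where the upper bound is 0.390%. Around the start of Smad1 57 CpGs had 4.59% in TetTKO and 3.66% in WT. Beside these low stretches TetTKO was higher in places. From 500 bp to 2 kb after the start, Smad1 had 21.3% in TetTKO (17.0 to 26.2%) and 7.61% in WT (4.77 to 11.4%). Smad5 had 23.0% in TetTKO and 10.1% in WT there, with overlapping intervals. From 2 to 1 kb before the start, Smad5 was lower, with 61.6% in TetTKO and 74.5% in WT. From 2 to 10 kb on either side of the 3 starts, most stretches were lower in TetTKO. Around the start of Smad5 102 CpGs had 6.94% in TetTKO (5.16 to 9.09%) and 2.00% in WT (1.12 to 3.27%), with the gain before the start: the window at 56803000 had 39.0% in TetTKO and 22.8% in WT, while the window over the start, at 56804000 with 93 CpGs, had 0.174% in TetTKO and 0.300% in WT.

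The direction of a window went with its methylation level, in these regions as elsewhere. Windows were classed by the mean of both libraries, which does not use their difference. Between 10 and 50%, 57 of 69 windows were higher in TetTKO with a median of 13.3 points, against 8.67 over all windows of that class. Between 50 and 80%, 82 of 259 were higher with a median of -4.07, against -6.89 over all. Above 80%, 33 of 131 were higher with a median of -4.18, against -6.50 over all, and under 10%, 33 of 36 were higher with a median of 2.58, against 1.36. The 9 regions held more of the low classes than the genome, with 7.27% of windows under 10% and 13.9% from 10 to 50%, against 2.04 and 6.59% of all windows, and more CpGs per window, with a median of 10 against 8. In the Bmp4 region all 8 windows from 10 to 50% were higher, and so were 8 of the 12 from 50 to 80%, with a median of 5.15. Windows under 10% numbered 28 in TetTKO and 44 in WT, and all 28 were also under 10% in WT. Over the genome such windows numbered 21711 in TetTKO and 31959 in WT, a ratio of 0.679, against 0.636 in the 9 regions.

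**Figure D3:**
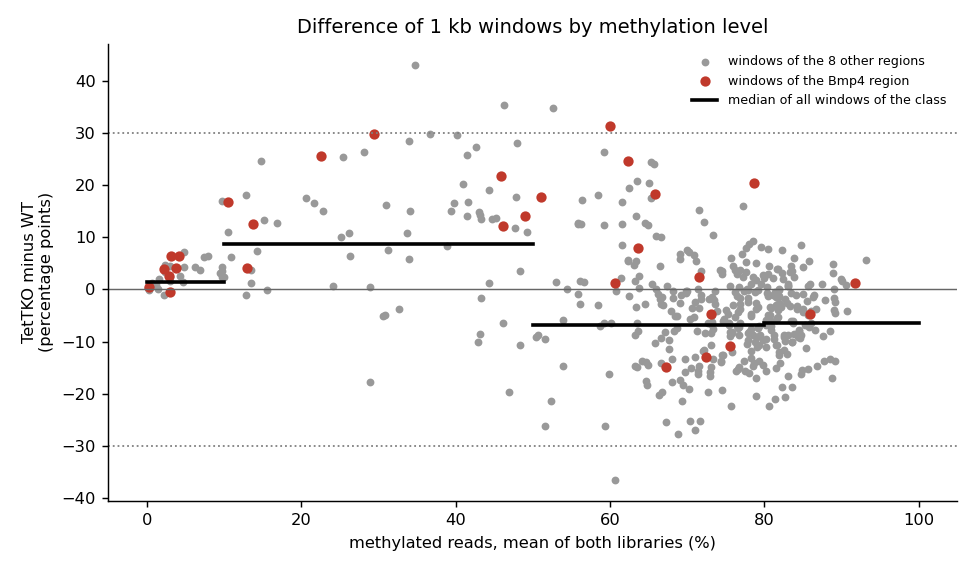
Difference in methylated reads, TetTKO minus WT (y axis, percentage points), of each of the 495 windows against the mean of both libraries (x axis, %); red points are windows of the Bmp4 region, grey points those of the other 8 regions, black bars the median of all windows in each class and dotted lines 30 points. Points between 10 and 50% lie mostly above 0 and points above 50% mostly below, with 5.15 as the median of the Bmp4 points from 50 to 80%.

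Set side by side, the 9 genes gave no common order of RNA and methylation. Bmp4, with the highest median window difference (6.36 points), had the lowest RNA ratio, 0.428. Id2 and Id1, next in window difference at 2.50 and 2.30 points, had RNA ratios of 1.31 and 0.959. Smad5, with the lowest median at -4.28 points, had a ratio of 1.11. Id3, with the highest ratio among the genes of at least 1 FPKM at 1.65, had a median of -2.55 points.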

How the data were processed

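WGBS and RNA-seq of 4 libraries, 1 per genotype and assay, were used as deposited. Per the submitters' processing notes, Trim Galore, Bismark 0.7.9, Bowtie, SAMtools, TopHat2 2.0.2 and Cufflinks 2.0.2 were used on mm9, with no settings. Which gene models were used is not given in the sources used here. As deposited, the methylation files hold the fraction of methylated reads per CpG with the count of methylated and of all reads, the same CpGs in both libraries, each with a coverage of at least 5. The lambda spike-in was not analysed here. The authors deposited expression as FPKM per gene, rounded, with symbol and interval but no strand. The depth of the RNA libraries is unknown, because FPKM gives no counts.

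From there, Python 3.11.15 with pandas 2.3.3, numpy 2.4.6 and scipy 1.17.1 was used, and matplotlib 3.10.9 for plots. Rows of 1 symbol were summed, 1 FPKM was added, log2 differences were taken, and genes that reached 1 FPKM in TetTKO or WT were counted past 2-fold by size. Methylated and total calls were summed per 1 kb window with at least 5 CpGs on the autosomes and X, with exact (Clopper-Pearson) 95% binomial intervals, and windows were counted past 30 percentage points. PCR copies are not independent molecules. RefSeq promoter sequences (GRCm38.p6) were placed on mm9 by the spacing of their CpGs against the listed positions; each of the 7 was placed at a single site where all listed CpGs matched, and this fixed the strand. Positions on mm9 and GRCm38.p6 differ and are named by build.

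The genes and lists were chosen with earlier results of these data known. All 9 genes are named; of the lists, every gene past 2-fold and up to 4 per list with the highest FPKM, plus Nog, Chrd, Rgmb, Acvrl1, Hey1 and the marker genes named, chosen after their values were seen; windows are named past 30 points, at the gene ends, or where their intervals lay apart beside these. The calculations were tested on simulated data.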

Additional observations from a re-analysis of the deposited data

How the results depend on the processing

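With 1 library per group, no replicate could be left out, and a difference smaller than that between cultures cannot be seen. No paired analysis was possible because each genotype had 1 library per assay. Among the 9 genes, Bmp4 was 2-fold lower under every RNA alternative except 5 FPKM added, where 0 genes were lower; 1 was higher at 1.5-fold (Id3). The median log2 difference of the 8 genes that reached 1 FPKM, 0.23, was 0.30 with 0.1 FPKM added, 0.10 with 5 FPKM, 0.21 over all 9 with no filter and 0.25 with FPKM scaled to a median of 0. For the lists, with 2 genes higher, 1 lower and a median of 0.16, the median was 0.21 with 0.1 FPKM added, 0.0687 with no filter, 0.17 with the filter on the mean and 0.18 scaled; 5 FPKM gave 0 higher, 0 lower and 0.0688, and 1.5-fold gave 4 higher.

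Windows depended more on the settings. Against 4 gains, 1 loss and a median of -1.65 points, windows of at least 10 CpGs gave 1 gain (0.385%, against 1.07% of all), 0 losses (0.0746% of all) and -0.0599. A coverage of at least 10 in both libraries left 81 windows with 0 gains (1.24% of all), 0 losses (0.315% of all) and a median of 0.0. In both settings the share of gains was below that of all windows, unlike in the main setting (0.808% against 0.672%). Windows shifted by 500 bp gave 9 gains (1.82%, against 0.673% of all), 2 losses and -1.63, the mean of the CpG fractions 8 gains (1.62%, against 0.670%) and -1.28, and 5 kb each side 2 gains (0.667%, against 0.672%) and -1.45. At 20 points, 24 windows gained and 16 lost, where 2.41% and 6.42% of all windows did. Centred on the median of all windows, 18 gained (3.64%, against 1.47%) and the median was 4.26, by construction. At a coverage of at least 10, which kept 48 of 458 CpGs at Bmp4, its region differed by -2.53 points in place of 3.72, and Id3 by 2.39 in place of -1.54; the cause was not tested.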
